A study of Mus musculus with 6 samples.

Results

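The genes described here are 39 mouse genes of heterogeneous nuclear ribonucleoproteins (hnRNPs) and splicing factors, out of 21900 protein-coding genes of the reference annotation. They were taken by name from a list of this protein class, and a peak of the protein hnRNP UL1 counted for a member when its point fell between 5 kb before and 5 kb behind that gene's annotated span. The data are ChIP-seq peak tables from RAW 264.7 cells, a virus-transformed mouse macrophage line. Chromatin of untreated cells (0 h) and of cells given LPS at 100 ng/ml for 4 h or 10 h was immunoprecipitated by means of an hnRNP UL1 antibody. Each time had 1 ChIP library without a repeat, so times were compared by counts, without a statistical test. The 3 matching input libraries were not analysed here. LPS, a bacterial cell-wall component, activates macrophages through Toll-like receptor 4.

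hnRNPs are abundant nuclear proteins that package newly made RNA and steer its splicing, export and decay. SR proteins (serine- and arginine-rich splicing factors) mostly promote the use of exons, whereas many hnRNPs oppose it, and U2AF and the SF3B complex mark the 3' end of introns for the spliceosome. Many genes of both families control their own output through alternative splicing that exposes the transcript to decay. hnRNP UL1 is itself a member of the family, related to hnRNP U, so these peaks ask where on the genes of its own protein class it was found on chromatin.

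The authors listed 8425 peaks for 0 h, 9046 for 4 h (complete rows) and 1153 for 10 h. Rows are ordered by the Ensembl ID of the nearest gene, and the tables of 4 h and 10 h end early. A member without a peak in them may simply lie beyond their end. A peak at a member that is assigned to a neighbour beyond that end is likewise not listed. The resting state is therefore described from the whole 0 h table. Comparisons with 4 h use peaks whose nearest gene has an ID number below 27620 (the longer range, 15 members), and comparisons with 10 h use those below 22416 (the shorter range, 12 members). A peak is a point 2 bp wide without height, extent or score, and its depth is unknown. Whether the point is the summit or the middle of a called peak is not given, so it need not mark a binding position. A member belongs to a range only if some row names it, so members without any such row could not be placed. For orientation, 6 of 10 macrophage marker genes had a peak at 0 h, as did 2 of 8 T and B cell markers and 1 of 4 fibroblast markers. Of all protein-coding genes 19.3% did so. The exact 95% intervals of the marker groups overlap (26.2 to 87.8%, 3.19 to 65.1% and 0.631 to 80.6%). These counts are too small to check the cell type. Peaks do not measure expression, and the macrophage markers Cd14, Itgam, Adgre1 and Mertk had none at 0 h.

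In resting cells 23 of the 39 members held at least 1 hnRNP UL1 peak, 59.0% with an exact 95% Clopper-Pearson interval of 42.1 to 74.4%, which covers counting error only. Of all protein-coding genes 19.3% held one. The 23 members carried 42 peaks, and 11 members (28.2%) held at least 2, against 6.09% of all protein-coding genes. Among 87 other RNA-processing genes (further SR proteins and their kinases, snRNP proteins, helicases, splicing regulators, exon junction and export factors) 31 held a peak (35.6%, interval 25.6 to 46.6%). The members had a median length of 13.7 kb, against 17.1 kb for all protein-coding genes and 35.8 kb for those with a 0 h peak. The members' lengths ranged from 1.71 to 77.5 kb. Among the 16329 protein-coding genes within that range 18.6% held a peak. This background is only loosely matched, since the range holds most protein-coding genes. All 35 members with a promoter sequence in the reference table were rich in CpG there (an observed over expected ratio of at least 0.6 in some window), and so were 8896 of 17492 protein-coding genes. Within the CpG-rich genes 20 of 35 members (57.1%) and 29.1% of protein-coding genes held a 0 h peak.

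**Figure D1:**
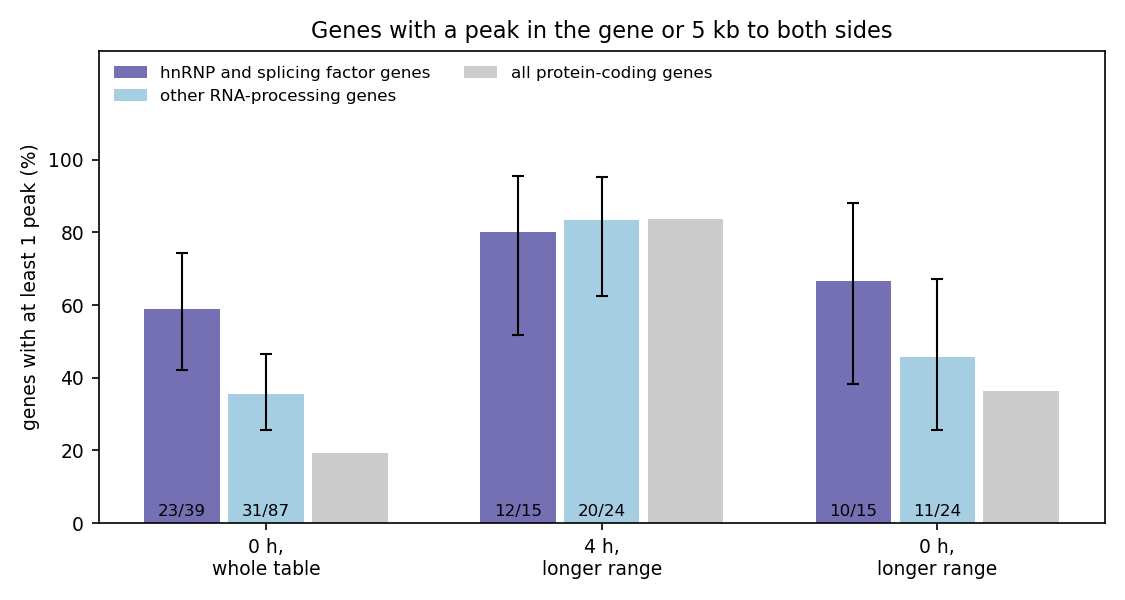
Percentage of genes with at least 1 peak in the gene or 5 kb to both sides, for hnRNP and splicing factor genes, other RNA-processing genes and all protein-coding genes (for the ranges, those that a row names). Error bars are exact 95% intervals for counting error and numbers on the bars are counts. For the whole 0 h table the members stand at 59.0% (23 of 39), above 19.3% of all genes, while at 4 h in the longer range the bars lie between 80.0% and 83.8%.

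By protein family, 6 of the 7 genes of the hnRNP A/B and D group held a resting peak, as did 5 of 8 SR protein genes, 3 of the 6 genes for hnRNPs C, M, L, LL, R and Q, 2 of the 4 hnRNP F and H genes and both FET genes, Ewsr1 and Taf15. Of the genes for poly(C)-binding hnRNPs 2 of 3 held one. In the U family 1 of 3 did so, as did 1 of 3 polypyrimidine tract-binding proteins and 1 of 3 among U2af1, U2af2 and Sf3b1. Of all protein-coding genes 19.3% held one. The exact 95% intervals of these small groups overlap, so no order among families is read. They span 42.1 to 99.6% for the A/B and D group and 0.840 to 90.6% for the U family. The gene of the precipitated protein itself, Hnrnpul1 (chromosome 7, 25721161 to 25756268, GRCm38), had no peak listed at any time, and no row of any table named it. It could therefore not be placed in a range, and only the lack of a 0 h peak can be read. Hnrnpul2, which encodes the closest relative of the precipitated protein, held 1 peak at 0 h, 732 bp inside its 5' end. Its ID lies beyond the longer range, so it could not be compared with 4 h or 10 h. Hnrnpu, which encodes the chromatin scaffold protein SAF-A, had none at 0 h and 2 at 4 h. Both rows name the neighbouring gene Cox20: 1 point lay 2121 bp past the Hnrnpu 3' end and 142 bp from the start of Cox20, and the other lay 17534 bp inside Hnrnpu, where Cox20 overlaps it. The other members without a 0 h peak were Hnrnpa1, Hnrnpm, Hnrnpl, Syncrip, Hnrnph1, Hnrnph2, Hnrnpk, Ptbp1, Ptbp2, Srsf1, Srsf5, Srsf6, U2af1 and U2af2.

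The gene with the most resting peaks was Hnrnpf (chromosome 6, 117900340 to 117925622), whose product binds G-rich RNA near splice sites. Of its 7 points at 0 h 6 lay inside the gene, at 6671 bp to 22750 bp from the annotated 5' end, and the last lay 3175 bp past the 3' end. By the authors' annotation 5 of them lay within 1 kb of a transcription start, 4 of them at inner starts of the gene and 1 at the start of a gene without a name in the table. None lay within 1 kb of the outermost 5' end. Hnrnpa3, which encodes an A/B-type hnRNP, came next with 4 points, at 7320 and 9325 bp in its 3' untranslated region and 438 and 862 bp past its 3' end. Hnrnpll, known for switching CD45 exons in lymphocytes, held 3 points. Its start-side point lay 1595 bp inside the gene, and the other two lay 3804 and 4453 bp past its end, nearest to a gene without a name in the table.

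At 14 of the 23 members with a resting peak, a point lay within 1 kb of the gene's 5' end, a share not computed for other genes. These 18 points include pairs on either side of the start in Hnrnpr (276 bp upstream and 793 bp inside), Pcbp1 (773 bp upstream and 669 bp inside), Pcbp2 (18 bp upstream and 728 bp inside) and Ewsr1 (136 bp upstream and 186 bp inside). Pcbp1 and Pcbp2 encode poly(C)-binding hnRNPs, and Ewsr1 encodes an RNA-binding protein of the FET family that also works in transcription. The point of Srsf10, which encodes a splicing regulator that turns repressor when dephosphorylated, lay 12 bp inside the gene. The remaining start-side points were those of Hnrnpa0 (771 bp upstream), Hnrnpa2b1 (634 bp inside), Hnrnpd (271 bp inside), Hnrnpdl (255 bp upstream), Hnrnph3 (296 bp inside), Srsf2 (252 bp upstream), Srsf7 (437 bp inside) and Taf15 (365 bp upstream), with Hnrnpul2 as above. Hnrnpab, at 1034 bp, lay just outside that distance.

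Several of these starts are shared with a neighbour. The 0 h points at Hnrnpdl and Srsf2 were assigned by the table to Enoph1 and Mfsd11, which begin beside them, and 1 of the 2 points at Ewsr1 to Rhbdd3. In all, 9 of the 42 resting points counted at members name another gene, so a table lookup by gene name alone would miss Hnrnpdl, Pcbp1 and Srsf2. At such paired starts a peak cannot be assigned to 1 of the genes.

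Other resting points lay at gene ends. Of the 42 points 8 lay past the 3' end and 4 were annotated to a 3' untranslated region, in Hnrnpa3, Hnrnpd and Srsf7. Hnrnpd encodes AUF1, which binds AU-rich elements and promotes decay of cytokine mRNAs, and its gene-end point lay 21751 bp into a gene of 23196 bp. The points of Srsf3 and Srsf11, both SR protein genes, lay 2408 and 1100 bp past the end. A single resting point was annotated as intronic, in intron 4 of 13 of Ptbp3, the polypyrimidine tract-binding protein of blood cells. Hnrnpc, whose product binds uridine tracts, held a point 5011 bp inside, which the table places 1409 bp before an inner start. Sf3b1, the U2 snRNP subunit that binds at the branch site, held points at 1207 and 34133 bp. The map of resting peaks shows these positions gene by gene.

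**Figure D2:**
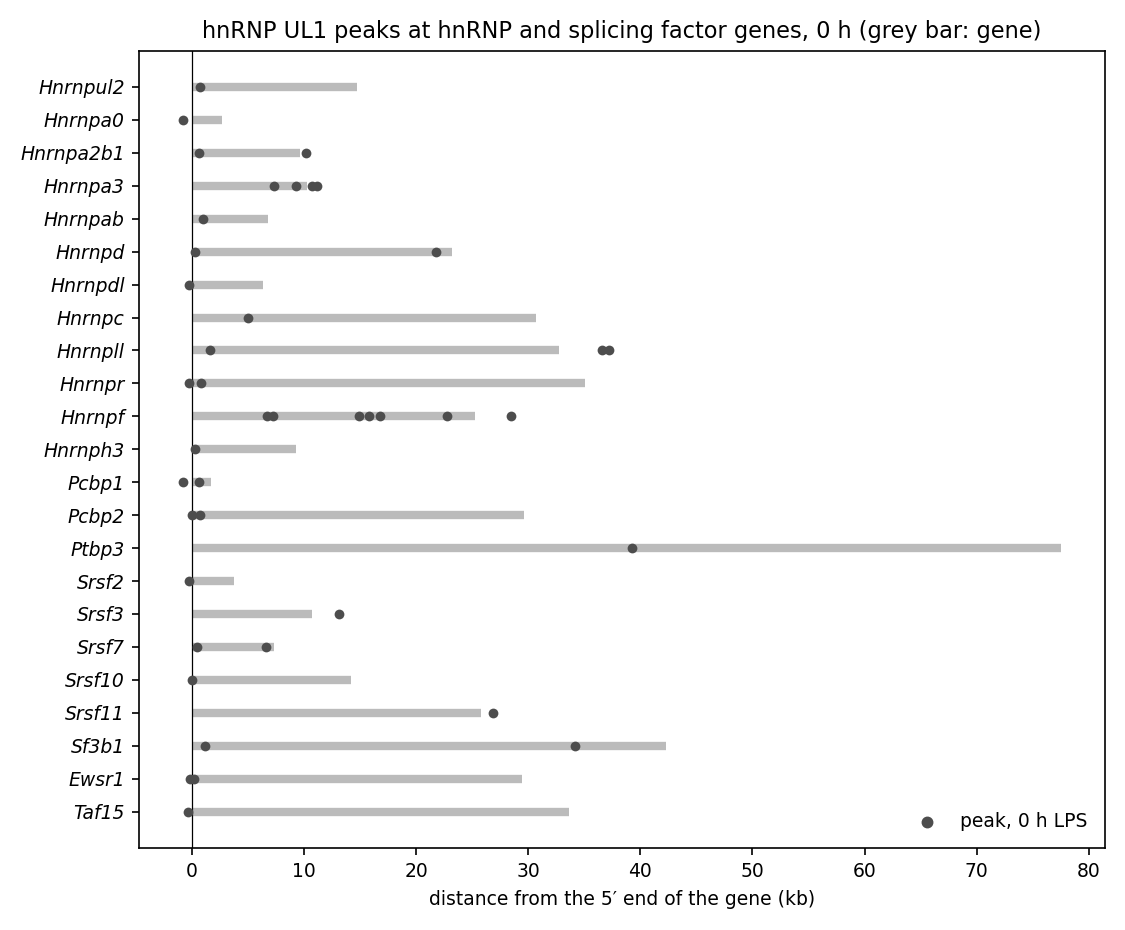
Position of each 0 h peak (dots) in kb from the annotated 5' end, for the 23 members with a peak in resting cells; grey bars are the genes at their length. Points gather near 0 kb in 14 genes, Hnrnpf carries 7 points along its body, and several genes have points at or past the right end of the bar.

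By the authors' annotation 25 of the 42 resting points (59.5%, interval 43.3 to 74.4%) were in the promoter class of up to 1 kb, against 34.9% of the 6268 peaks at all protein-coding genes. The intron class held 2.38% of the members' points, against 41.8%. These gaps were smaller or gone against short genes. Among the 994 peaks at genes no longer than the members' median length, 62.2% lay within 1 kb of a start and 8.05% in introns. The members' share at starts was close to that of this set. The set is not matched for length, because members above their own median, up to 77.5 kb long, exceed every gene in it. The class of 3' untranslated regions held 9.52% of the members' points (4 peaks, interval 2.66 to 22.6%), 2.62% of those at short genes and 2.04% of those at all genes.

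**Figure D3:**
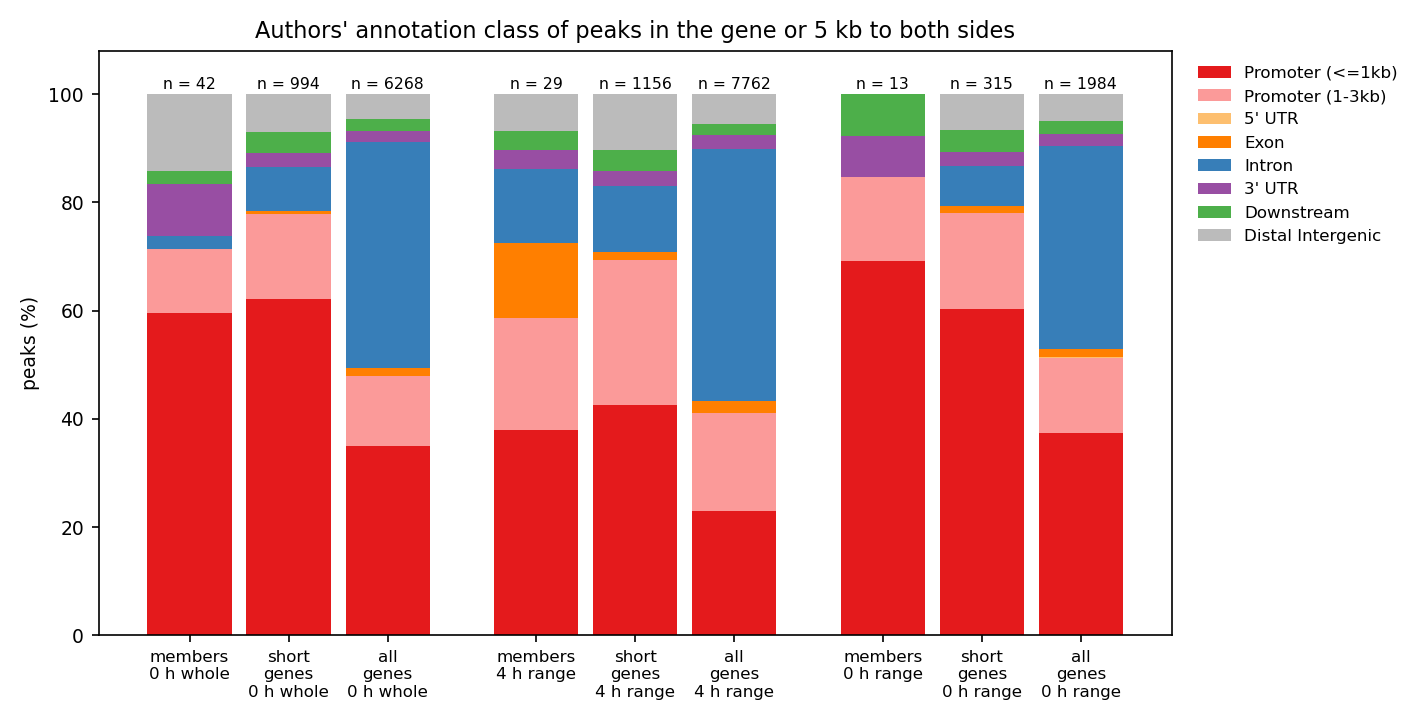
Share of peaks in each annotation class of the authors, for peaks at hnRNP and splicing factor genes, at protein-coding genes no longer than the members' median length (short genes) and at all protein-coding genes, with the number of peaks above each bar. The promoter class within 1 kb (red) holds 59.5% of the members' 0 h points, 62.2% at short genes and 34.9% at all genes; intron (blue) dominates at all genes.

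Promoter sequences are printed for the 5 members in which a point fell inside the reference window of 250 bases before to 50 after a start, to show the sequence on which the peak points sit. They are from RefSeq, build GRCm38.p6, written 5' to 3' on the strand of the gene, and capitals mark up to 21 bases centred on the listed point. The windows are chr11:83472858-83473157 (plus strand, Taf15, point of 4 h), chr11:5099047-5099346 (minus strand, Ewsr1, point of 0 h), chr11:116853045-116853344 (minus strand, Srsf2, point of 4 h), chr6:117907554-117907853 and chr6:117917044-117917343 (plus strand, 2 starts of Hnrnpf, points of 0 h), and chr15:102470289-102470588 (plus strand, Pcbp2, point of 0 h). A second Pcbp2 window, chr15:102470382-102470681, overlaps the first and holds the same point, and its letters are not printed.
Taf15: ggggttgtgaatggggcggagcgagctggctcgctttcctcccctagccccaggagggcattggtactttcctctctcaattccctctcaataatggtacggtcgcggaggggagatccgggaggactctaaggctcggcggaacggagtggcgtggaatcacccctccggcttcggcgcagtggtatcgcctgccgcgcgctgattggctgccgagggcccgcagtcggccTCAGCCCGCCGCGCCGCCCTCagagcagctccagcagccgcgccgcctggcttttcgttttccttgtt
Ewsr1: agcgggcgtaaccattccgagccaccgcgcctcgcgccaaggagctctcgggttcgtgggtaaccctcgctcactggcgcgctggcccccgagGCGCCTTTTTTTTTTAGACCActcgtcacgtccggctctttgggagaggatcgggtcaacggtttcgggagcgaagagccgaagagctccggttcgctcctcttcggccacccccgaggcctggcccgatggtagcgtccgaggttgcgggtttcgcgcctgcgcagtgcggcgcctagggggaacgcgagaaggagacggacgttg
Srsf2: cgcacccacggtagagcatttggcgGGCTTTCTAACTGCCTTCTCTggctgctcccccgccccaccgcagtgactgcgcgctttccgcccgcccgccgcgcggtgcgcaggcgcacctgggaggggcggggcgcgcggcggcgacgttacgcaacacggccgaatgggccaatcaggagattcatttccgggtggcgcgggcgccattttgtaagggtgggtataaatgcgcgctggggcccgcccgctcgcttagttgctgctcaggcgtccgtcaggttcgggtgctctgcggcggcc
Hnrnpf start A: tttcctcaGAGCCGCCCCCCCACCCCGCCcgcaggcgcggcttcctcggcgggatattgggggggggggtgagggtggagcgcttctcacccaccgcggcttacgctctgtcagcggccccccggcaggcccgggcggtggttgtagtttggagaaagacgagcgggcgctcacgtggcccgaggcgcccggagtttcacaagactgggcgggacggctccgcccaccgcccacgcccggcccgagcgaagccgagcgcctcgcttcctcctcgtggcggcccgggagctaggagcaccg
Hnrnpf start B: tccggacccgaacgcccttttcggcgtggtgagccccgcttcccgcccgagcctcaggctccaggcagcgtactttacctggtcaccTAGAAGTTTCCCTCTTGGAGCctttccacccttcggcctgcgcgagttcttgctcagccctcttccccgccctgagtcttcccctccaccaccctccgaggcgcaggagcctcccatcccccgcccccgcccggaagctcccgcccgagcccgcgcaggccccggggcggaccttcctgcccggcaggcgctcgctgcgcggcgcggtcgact
Pcbp2: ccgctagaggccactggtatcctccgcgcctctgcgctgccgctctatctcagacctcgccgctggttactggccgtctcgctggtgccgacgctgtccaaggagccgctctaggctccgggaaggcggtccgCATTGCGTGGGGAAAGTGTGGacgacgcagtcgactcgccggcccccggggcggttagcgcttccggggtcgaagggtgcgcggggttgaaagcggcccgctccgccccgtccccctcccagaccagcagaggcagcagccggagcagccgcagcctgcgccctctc

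The start in each window is that of 1 RefSeq transcript and need not be the gene's annotated 5' end, from which all other distances are given. From the transcript's start the points lay 8 bp (Taf15), 147 bp (Ewsr1), 215 bp (Srsf2), 232 and 153 bp (Hnrnpf) and 107 and 200 bp (Pcbp2) upstream. From the gene's 5' end the Taf15 and Srsf2 points of 4 h lie 27 and 366 bp inside. The GC content of these 7 windows ranged from 65.7% for Taf15 to 76.0% for the second Pcbp2 window. Over the 47 windows of 35 matched members the median GC content was 66.3% and the median CpG ratio 0.970, against 56.3% and 0.567 over 21263 windows of protein-coding genes. The GC box (GGGCGG) occurred on either strand in 39 of the 47 member windows (83.0%) and in 46.2% of all windows, with 6 matches in each Hnrnpf window, 5 in Srsf2, 2 in Taf15, 2 and 11 in the first and second Pcbp2 windows and 0 in Ewsr1. The CCAAT box (CCAAT) occurred in 53.2% of member windows and 38.2% of all, and the ETS core (CCGGAA) in 38.3% and 18.7%. The TATA box (TATAAA) occurred in 8.51% and 12.6%, and the CRE (TGACGTCA) in 0 of 47 and 2.23%. Searches covered both strands and matches may overlap. The windows of all genes were not matched to those of the members for GC content or CpG ratio. The matches describe the letters of the windows and say nothing about which factor was bound.

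After 4 h of LPS 12 of the 15 members of the longer range held a peak (80.0%), and 10 of the 15 did so at 0 h (66.7%). Over all 3371 protein-coding genes named in that range, 83.8% held a peak at 4 h and 36.3% at 0 h. The members' share at 4 h was thus close to the background, and their share at 0 h stood above it. The 15 members carried 29 peaks at 4 h and 13 at 0 h, with medians of 2 and 1 per gene, and of 1 and 0 over all genes of the range. Peaks at both times were found at 7 of the 15 members (46.7%, against 28.3% of the genes of the range). Peaks at 4 h alone were found at 5 members (33.3% against 55.5%) and at 0 h alone at 3 of 15 (against 8.01% of the genes). More peaks at 4 h than at 0 h were listed for 9 of 15 members (60.0%), against 72.9% of the genes of the range. Of the other RNA-processing genes in this range 20 of 24 held a peak at 4 h and 11 of 24 at 0 h. Because only genes that a row names enter the range, and most rows are of 4 h, all shares at 4 h are high by construction. The rule also raises the shares at 0 h, which were 36.3% here and 19.3% over all protein-coding genes of the whole 0 h table. It likewise shapes the split into both times and 1 time alone.

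The 4 h table is longer, with 9045 peaks in this range against 2225 at 0 h. Points at Srsf2 and Hnrnpu are among the peaks of the range but are not counted for members here, as no row names these genes. Out of every 1000 peaks of the range the 15 placed members had 3.21 after 4 h (exact 95% bounds 2.15 and 4.60). In untreated cells they had 5.84 (bounds 3.11 and 9.97). The ratio was 0.549 and the bounds overlap. They cover counting alone, and peaks that sit side by side are not independent of each other.

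Hnrnpl, Hnrnph1, Hnrnpk, Ptbp1 and Srsf6 held peaks at 4 h and none at 0 h. Hnrnpl, whose product binds CA repeats, had 1 point 467 bp inside the gene. Hnrnpk, whose product binds C-rich RNA and DNA, had a point 972 bp inside the gene, where Rmi1 overlaps it, and another 3189 bp past its end. Hnrnph1, a G-tract-binding relative of Hnrnpf, had a point 3281 bp inside, by the authors' annotation within 1 kb of a start, and another 495 bp past its end. A further row naming Hnrnph1 lay 10251 bp past its end in an intron of Rufy1 and was not counted. Ptbp1, the main polypyrimidine tract-binding repressor of exons outside neurons, had 1 point at 1632 bp. Srsf6 had points 3491 bp upstream and 803 bp inside.

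Hnrnpa0, Hnrnph3 and Srsf7 had 1 point each at 0 h in the longer range and 0 at 4 h. For Hnrnpa0 this holds within 5 kb of the gene, since counting 10 kb to both sides adds 1 point at 4 h. All 3 points lay within 1 kb of the start, at the positions given above. hnRNP A0 binds AU-rich elements of inflammatory mRNAs in LPS-treated macrophages. For Hnrnph3 the nearest listed 4 h peak lay 43337 bp away and for Srsf7 149163 bp. Nearer 4 h peaks assigned to genes beyond the longer range could not be listed. The other 0 h point of Srsf7, near its gene end, names such a gene.

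At the 7 members with peaks at both times, the positions differed in kind. In Hnrnpd the 4 h points lay 25 bp from the 0 h point at the start and 215 bp from the 0 h point at the gene end. In Hnrnpa2b1, whose product regulates splicing and also senses viral DNA in the nucleus, the start-side points lay 240 bp apart, and the gene held 5 points at 4 h against 2 at 0 h. Ewsr1 held 3 points at 4 h, at 17497 and 25956 bp inside and 1362 bp past the end. None was listed within 1 kb of the 5' end, where its single 0 h point of the range lay. The other 0 h point at that start names Rhbdd3, whose ID lies beyond the longer range. A 4 h peak assigned to Rhbdd3 could therefore not be listed. Hnrnpll held 4 points at 4 h inside the gene, at 4499, 10444, 11456 and 27221 bp, of which 2 were annotated to its exons and 1 to its intron 1 of 12. Its 0 h point of the range lay at 1595 bp, 2904 bp from the nearest of them. Sf3b1 held 1 point at 4 h, 266 bp upstream of the start, 1473 bp from its nearest 0 h point. Hnrnpab had its 0 h point 1034 bp inside the 5' end (999 bp from a start by the authors' distance), but its 4 h point lay 4875 bp past the gene end in the last exon of Phykpl, so the counted region alone ties that point to Hnrnpab.

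**Figure D4:**
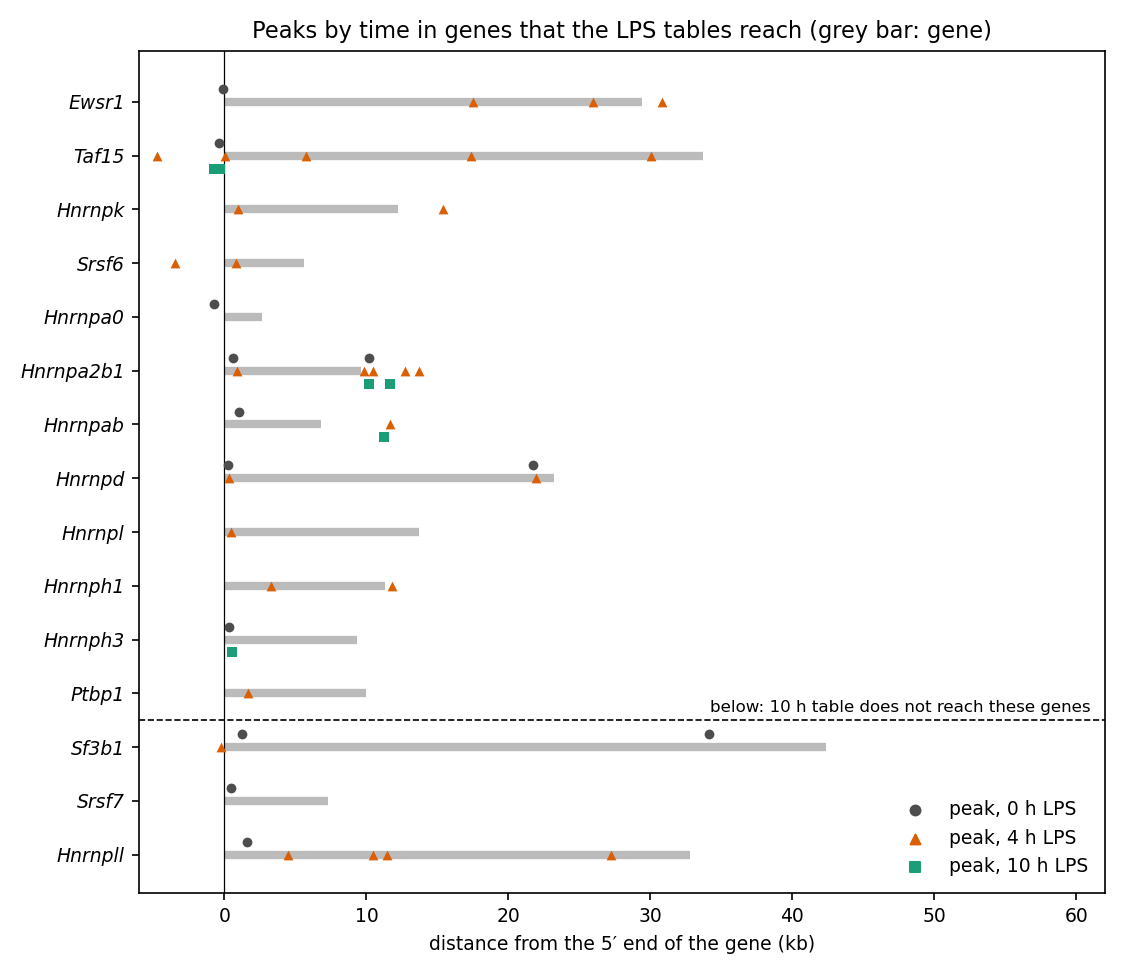
Peaks of 0 h (dots), 4 h (triangles) and 10 h (squares) in kb from the annotated 5' end, for the 15 members that the 4 h table reaches; grey bars are the genes. Hnrnpl, Hnrnph1, Hnrnpk, Ptbp1 and Srsf6 carry triangles without dots, and Hnrnpa0, Hnrnph3 and Srsf7 carry dots without triangles.

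Of the 29 member points at 4 h in this range 11 (37.9%, interval 20.7 to 57.7%) lay within 1 kb of a start by the authors' annotation, and of the 13 at 0 h 9 did so (69.2%, 38.6 to 90.9%). At short genes the shares were 42.6% at 4 h and 60.3% at 0 h, and at all protein-coding genes 23.0% and 37.4%. The lower share at 4 h was thus seen in every one of these groups. Past the 3' end lay 8 of the 29 points at 4 h, 4 of them at Hnrnpa2b1, and 1 of the 13 at 0 h. Over the whole 0 h table it was 8 of 42, and the share at other genes was not computed, so no difference between times is read from these counts. A 0 h peak was listed no more than 500 bp from 6 of the 29 member points of 4 h (20.7%), and from 4.51% of all 4 h peaks of the range. These were both points of Hnrnpd, 3 of Hnrnpa2b1 and the start point of Taf15. Seen from 0 h, 5 of 13 member points (38.5%) had a 4 h peak within 500 bp, against 18.0% of all. Within 200 bp the counts were 1 and 1, both from the start of Hnrnpd. These were 3.45% of the 29 points against 2.48% of all 4 h peaks, and 7.69% of the 13 against 9.93% of all 0 h peaks. The higher shares of the members at 500 bp were thus not seen at 200 bp.

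Srsf2, which encodes the SR protein SC35, is not named by any row, but its start is shared with Mfsd11, whose ID lies in the shorter range. There 1 point was listed at 0 h, 252 bp upstream of the Srsf2 5' end, and 2 at 4 h, 176 and 366 bp inside it, the nearest pair 428 bp apart. No 10 h point was listed there.

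At 10 h 4 of the 12 members of the shorter range held a peak (33.3%), close to the 30.4% of all 2070 protein-coding genes of that range. At 4 h 10 of the 12 did so, against 80.7%, and at 0 h 7 of the 12 (58.3%, interval 27.7 to 84.8%), against 35.2%. Here too only genes that a row names enter the range, which raises these shares. The 12 members carried 9 points at 0 h, 24 at 4 h and 6 at 10 h, without those at Srsf2, which no row names. Per 1000 peaks of the range this was 6.86 at 0 h (interval 3.14 to 13.0), 4.53 at 4 h (2.90 to 6.73) and 5.21 at 10 h (1.91 to 11.3), and all intervals overlap. The 4 members with a 10 h peak were Hnrnpa2b1 and Taf15 with 2 each and Hnrnpab and Hnrnph3 with 1 each. All 4 also had a 0 h peak, and all but Hnrnph3 had a 4 h peak.

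Taf15 (chromosome 11, 83473073 to 83506743), the gene of an RNA-binding FET protein that associates with the TFIID complex, had 1 point at 0 h, 5 at 4 h and 2 at 10 h. The 0 h point lay 365 bp upstream of the 5' end and the nearest 10 h point 303 bp upstream, 62 bp from it, with a second 10 h point 737 bp upstream. At 4 h a point lay 27 bp inside the start, 392 bp from that of 0 h, and 3 more ran through the gene at 5770, 17393 and 30073 bp. The fifth lay 4760 bp upstream. Points inside the gene beyond its start were thus listed at 4 h and at no other time.

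Hnrnpa2b1 (chromosome 6, 51460434 to 51470048) held 2 points at 0 h, 5 at 4 h and 2 at 10 h. Points just past its 3' end were listed at every time: 563 bp past the end at 0 h, 197 and 844 bp at 4 h and 599 bp at 10 h. The 10 h point lay 36 bp from that of 0 h. Farther on, the end of the neighbouring gene Nfe2l3 held points 3077 and 4096 bp past the Hnrnpa2b1 end at 4 h and 2040 bp past it at 10 h. Beyond the counted 5 kb, 1 more row at 4 h and 1 at 10 h still name Hnrnpa2b1. The start of the gene had a point at 0 h and at 4 h, and none at 10 h.

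Hnrnph3, a relative of Hnrnph1, had its 10 h point 526 bp inside the gene, 230 bp from the 0 h point. Hnrnpab had its 10 h point 4460 bp past the gene end in Phykpl, 415 bp from that of 4 h. In all, 4 of the 6 member points at 10 h had a 0 h peak within 500 bp (against 7.99% of all 10 h peaks), and 3 of 6 had a 4 h peak within that distance (against 20.3%). These counts are small, and the 4 points near 0 h come from 3 genes, with both Taf15 points near the same 0 h peak.

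**Figure D5:**
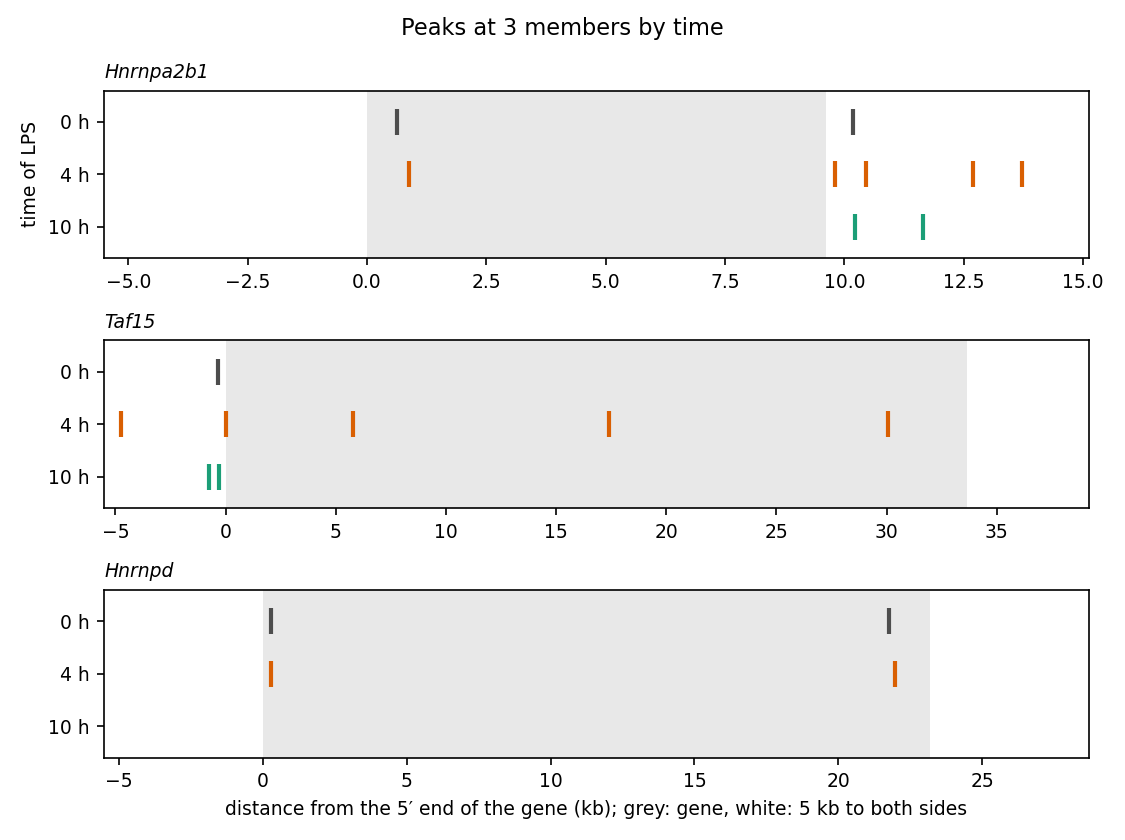
Peaks (vertical ticks) at Hnrnpa2b1, Taf15 and Hnrnpd after 0, 4 and 10 h of LPS, in kb from the annotated 5' end; grey marks the gene. The ticks just past the end of Hnrnpa2b1 and upstream of Taf15 recur between times, Hnrnpd has the same 2 places at 0 h and 4 h, and Taf15 has ticks inside the gene at 4 h.

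Among the other RNA-processing genes the most peaks lay at the muscleblind-like splicing regulator Mbnl2, with 8 points at 0 h, 25 at 4 h and 7 at 10 h. The splicing regulator gene Celf2 held 4, 9 and 1, and Celf1 held 2, 4 and 1. Mbnl1 and Qk, with 7 and 4 points at 0 h, have IDs beyond the end of the 4 h and 10 h tables. In the shorter range 8 of 17 of these genes held a peak at 0 h, 15 of 17 at 4 h and 6 of 17 at 10 h. All genes of that range stood at 35.2%, 80.7% and 30.4%. Of the core spliceosome proteins of the U1, U2 and U5 snRNPs 6 of 22 held a resting peak (27.3%, interval 10.7 to 50.2%). Of the alternative splicing regulators 12 of 27 did so (44.4%, 25.5 to 64.7%), against 19.3% of all protein-coding genes. The difference was not tested. The regulators include long genes, such as Celf2 (857 kb), Mbnl1 (157 kb) and Mbnl2 (156 kb), and counts were not scaled to length.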

How the data were processed

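The 3 ChIP peak tables were grouped by sample title. The tools that the submitters' processing notes name are MACS2 2.1.0, BWA 0.7.12 and CASAVA 1.8, with build GRCm38 (mm10), and roles and thresholds are not given in the sources used here. Per the file headers the authors deposited a position, an annotation class, the nearest gene and the distance to its start for each peak. The 1 incomplete last row of the 4 h table was left out. Gene spans come from the RefSeq annotation of GRCm38.p6, of the same build, in which 39 of 39 members were matched by symbol. Strands come from the tables or, for genes that no row names, from the RefSeq promoter table, which held 35 of 39 members. Gene IDs come from the tables, and 25 members were named by some row. The members and lists were chosen with earlier results of these data known. Every member with a counted peak is named, as are those with most peaks among the other genes. The CpG-rich background, the short-gene comparison and the motifs were chosen after seeing the data. Counting was tested on simulated data, where 200 of 200 genes had their planted number of points. Tools were Python 3.11.15, pandas 2.3.3, numpy 2.4.6, scipy 1.17.1 and matplotlib 3.10.9. Alternatives were other flanks, counting by gene name, starts alone, merged points, other distances and other backgrounds.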

Additional observations from a re-analysis of the deposited data

How the results depend on the processing

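No paired analysis was possible because each time has 1 library. A stricter peak threshold was not run, as the tables used here carry no score. At 0 h over the whole table the members' 42 peaks became 26 in the gene body alone and 25 within 1 kb of a start by the authors' annotation. The 29 peaks at 4 h in the longer range became 18 and 11 under the same settings. In the shorter range the gene body alone held 5 peaks at 4 members at 0 h, 14 peaks at 4 h and 1 peak at 1 member at 10 h. Starts alone left 9 peaks at 4 h there, and 3 peaks at 2 members at 10 h. Against genes with a CpG-rich promoter window the background at 0 h was 29.1% in place of 19.3%. Within 200 bp in place of 500 bp, 1 member point of 4 h lay near 0 h, 1 of 0 h near 4 h, 0 of 10 h near 4 h, 2 of 10 h near 0 h and 0 of 4 h near 10 h. The other 68 of these values stayed within 1.5 times the reported one. Over all peaks of the ranges the shares within 200 bp were 2.48%, 9.93%, 11.2%, 4.34% and 2.45%, in the same order. With Hnrnpa2b1 left out, the ratio of shares of 4 h over 0 h was 0.537. Depth is unknown, so a peak that is not listed is not shown to be absent.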
